A study of Mus musculus with 12 samples.

Results

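The genes described here are 9 complement components, receptors and surface regulators: C1qa, C1qb, C1qc, C3, Cfb, C3ar1, C5ar1, Cd55 and Cd59a. They were chosen by name. A gene was measured where the platform annotation paired a probe with that symbol alone, and 8 of the 9 had such a probe, exactly 1 each, among the 22180 genes measured in this way. C3 had none and is not analysed here. Cd59a, the membrane regulator that blocks the last step of complement attack, was the only member that passed the test in a pairwise comparison: under ventilation it was 2.23-fold lower in Zmpste24-/- lungs than in wild type lungs. No member passed the test for an effect of ventilation within a genotype.

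Complement is a cascade of plasma and tissue proteins that marks microbes and damaged cells. C1q, built from the products of C1qa, C1qb and C1qc, starts the classical pathway, and in tissue it is made largely by macrophages. Factor B, the product of Cfb, forms with C3b the C3-cleaving enzyme of the alternative pathway. The cleavage fragments C3a and C5a act on the receptors C3ar1 and C5ar1 of myeloid cells, while CD55 dismantles the C3-cleaving enzymes on the body's own cells and CD59 stops assembly of the membrane attack complex.

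The samples were whole lungs of female mice aged 10 weeks, 1 array per mouse. There were 4 groups of 3 mice. Wild type and Zmpste24-/- lungs were taken either from intact mice (baseline) or after 2.5 hours of mechanical ventilation in room air (inspired oxygen fraction 0.21) at an inspiratory pressure of 15 cmH2O, with no end-expiratory pressure and 100 breaths per minute. Zmpste24 encodes the protease that completes the processing of prelamin A, and none of the sources used here says how the allele was made. The comparisons ask how ventilation changed each genotype and how the genotypes differed in each condition. Values are log2 expression values as deposited, so a difference of 1 is a 2-fold change. A gene is said to have changed where limma's moderated test gave a Benjamini-Hochberg adjusted p under 0.05 over all 22180 genes.

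The libraries followed their genotype labels. Zmpste24 lay between 8.50 and 9.28 on the 6 wild type arrays and between 5.01 and 5.91 on the 6 Zmpste24-/- arrays (limma, adjusted p = 1.18e-05 at baseline and 5.57e-06 under ventilation). The lung markers were high on all 12 arrays: Sftpc of alveolar type 2 cells reached at least 13.02, Ager of alveolar type 1 cells 12.11 and Scgb1a1 of airway cells 13.12. Array medians ran from 5.35 to 5.42, and arrays of 1 group correlated at 0.991 to 0.996 across genes, which are not independent replicates. Wild type baseline array 2 stood apart in liver transcripts, with Alb at 11.52 and Mup20 at 10.05 (Alb at 8.12 and 9.18, Mup20 at 6.20 and 6.44, on arrays 1 and 3 of the group). The Alb arrays of the genotypes were also apart in both conditions. Alb ran from 7.04 to 9.18 in ventilated wild type lungs, from 6.04 to 6.39 in Zmpste24-/- baseline lungs and from 6.20 to 6.40 in ventilated Zmpste24-/- lungs. Under ventilation it did not pass for genotype, nor did any other of 13 liver markers. Mup20 was apart at baseline, while the ventilated genotypes overlapped. Cfb, which the liver also makes, was at 7.12 on wild type baseline array 2 and did not stand apart.

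Upstream stretches of 3 members are shown, because Cd59a carried the clearest genotype difference, and because C1qb and C1qc lie next to each other and their levels went up and down together from array to array. They come from RefSeq on GRCm38.p6 and run 5′ to 3′ on the strand of each gene. Cd59a lies at chr2:104095551-104095752 on the plus strand, C1qb at chr4:136886201-136886450 and C1qc at chr4:136892937-136893164, both on the minus strand. The stretches are intergenic sequence upstream of the annotated start. Capitals mark the interferon-stimulated response element letters (GAAA, 2 bases of any kind, then GAAA) and GAGGAA or its reverse complement TTCCTC, the core that the myeloid factor PU.1 reads.
Cd59a: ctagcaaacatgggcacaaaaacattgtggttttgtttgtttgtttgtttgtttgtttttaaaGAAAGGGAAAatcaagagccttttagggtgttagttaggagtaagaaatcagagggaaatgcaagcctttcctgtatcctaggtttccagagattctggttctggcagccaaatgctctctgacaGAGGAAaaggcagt
C1qb: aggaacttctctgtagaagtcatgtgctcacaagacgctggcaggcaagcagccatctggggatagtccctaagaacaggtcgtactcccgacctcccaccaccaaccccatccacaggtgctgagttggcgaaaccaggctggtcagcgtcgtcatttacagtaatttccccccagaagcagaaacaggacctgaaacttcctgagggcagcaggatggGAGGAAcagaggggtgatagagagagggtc
C1qc: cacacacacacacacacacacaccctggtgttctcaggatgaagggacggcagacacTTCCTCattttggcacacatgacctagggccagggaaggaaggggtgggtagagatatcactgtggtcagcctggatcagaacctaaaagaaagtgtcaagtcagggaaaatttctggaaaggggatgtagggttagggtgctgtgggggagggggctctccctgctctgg
Windows of 300 bases around the start, 250 before and 50 after it, were in the table for 7 of the 9 members, C3 among them, and each motif was searched on both strands. The interferon-stimulated response element letters were present in the Cd59a window alone among the 7, against 3.44% of 32851 windows of all genes. GAGGAA was present in 3 of the 7, those of Cd59a, C1qb and C1qc, against 28.3% of all windows. The NF-kB letters, GGG and CC with 5 free bases between, were present in 6 of 7 member windows and in 50.8% of all windows, and the C/EBP letters TTGCNNAA in 1 of 7 (C3) and in 10.8%. TTCNNNGAA of the STAT factors (8.3% of all windows) and the heat shock element, GAA, TTC and GAA each 2 bases apart, (0.603%) were in none of the 7. These are matches of letters and were not tested for binding.

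**Figure D1:**
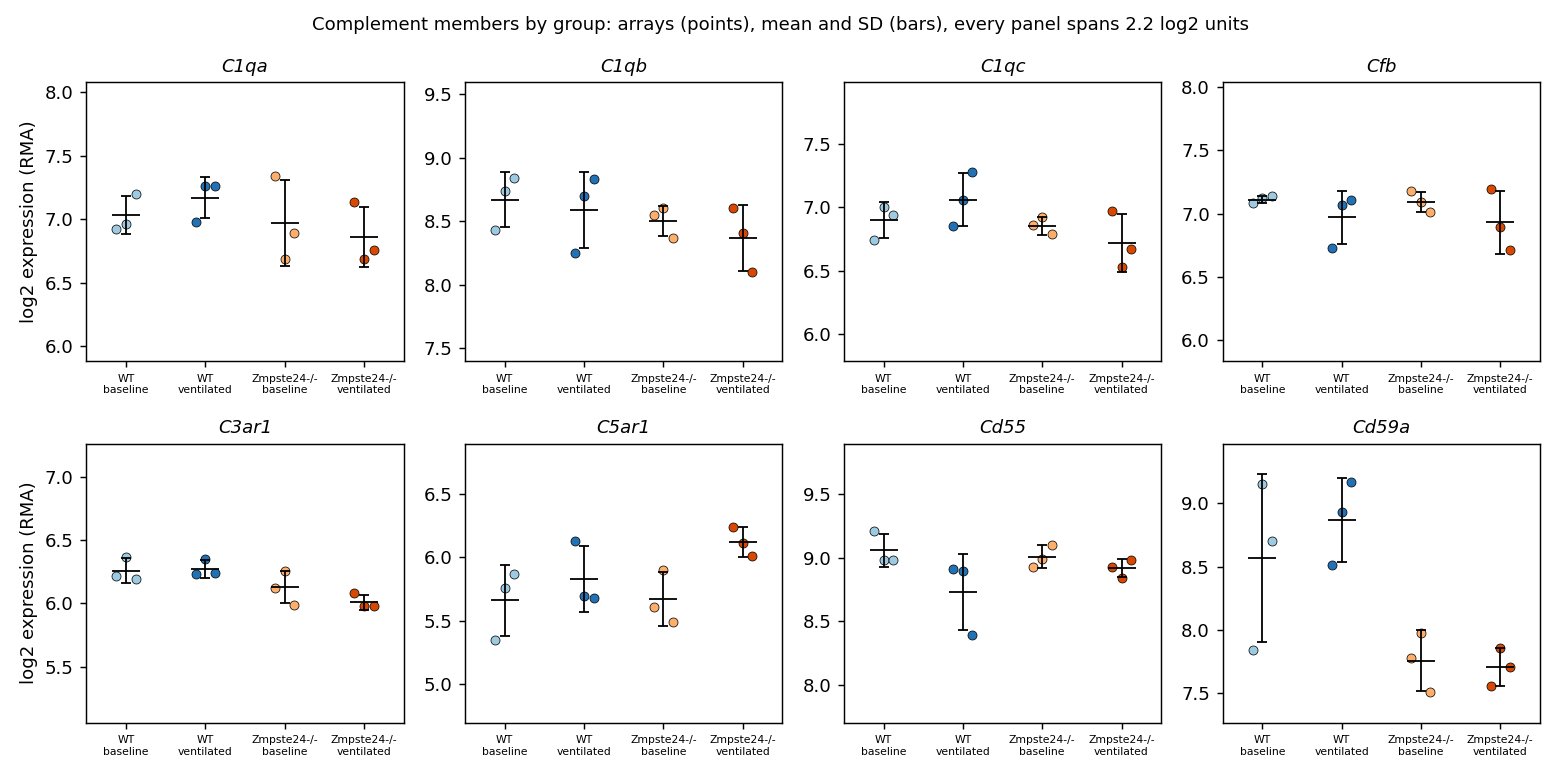
Log2 expression of the 8 measured complement genes on each of the 12 arrays, 1 panel per gene; points are single mice, and the bars give the mean and the SD of the 3 mice of a group. Cd59a sits between 7.51 and 7.98 on all 6 Zmpste24-/- arrays, while 5 of the 6 wild type arrays lie at 8.51 or higher.

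C1qa, the A chain of C1q, was measured at 6.92, 6.96 and 7.20 on the wild type baseline arrays and at 6.98, 7.26 and 7.26 after ventilation. In lungs of Zmpste24-/- mice it was at 7.34, 6.69 and 6.89 at baseline and at 7.14, 6.69 and 6.76 after ventilation. The groups overlapped, and array 1 was the highest of its group in both Zmpste24-/- conditions. C1qb, the B chain, was at 8.43, 8.74 and 8.84 in baseline wild type lungs and at 8.25, 8.70 and 8.83 after ventilation. It was at 8.55, 8.60 and 8.37 in Zmpste24-/- baseline lungs and at 8.60, 8.41 and 8.10 after ventilation. Its 4 group means lay between 8.37 and 8.67, closer together than the arrays of some groups.

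C1qc, the C chain, was at 6.74, 7.0 and 6.94 in baseline wild type lungs and at 6.85, 7.06 and 7.28 after ventilation. The Zmpste24-/- lungs read 6.86, 6.92 and 6.79 at baseline and at 6.97, 6.53 and 6.67 after ventilation. The ventilated groups overlapped through array 1 of each, which was the lowest of the wild type and the highest of the Zmpste24-/- arrays. Under ventilation the genotype difference was −0.34 ± 0.13 (SE) for C1qc, with a 95% confidence interval of −0.61 to −0.07, and did not pass (limma, adjusted p = 0.109). It passed without array 1 of the ventilated wild type group (−0.45, adjusted p = 0.0438) or without array 1 of the ventilated Zmpste24-/- group (−0.46, adjusted p = 0.0423). The same difference was −0.30 ± 0.16 for C1qa (adjusted p = 0.272) and −0.22 ± 0.16 for C1qb (adjusted p = 0.439).

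Ventilation moved the C1q genes by at most 0.17 in either genotype: C1qa, C1qb and C1qc differed by 0.14, −0.07 and 0.17 in wild type lungs and by −0.11, −0.13 and −0.13 in Zmpste24-/- lungs, and none passed. Their genotype differences at baseline were −0.06, −0.16 and −0.04, none of which passed. Other genes of the classical and lectin pathway had larger differences that did not pass. C4a, a close copy of the complement C4 gene C4b, was at 0.35 ± 0.16 with ventilation in wild type lungs. Its wild type arrays read 3.34 to 4.13, below the array medians. C4b itself differed by −0.18 ± 0.17 there and by −0.38 ± 0.17 with ventilation in Zmpste24-/- lungs. Of the 19 measured genes of these pathways, the C1q genes included, 0 passed in any of the 5 contrasts (limma, Benjamini-Hochberg), against 7.2%, 16.4%, 6.31%, 10.8% and 0.316% of all genes for ventilation in wild type, ventilation in Zmpste24-/-, genotype at baseline, genotype under ventilation and the interaction. At an unadjusted p under 0.05 there were 1, 3, 2, 3 and 2 of the 19, against 20.4%, 27.4%, 20.9%, 24.8% and 11.7% of all genes. In each of the averaged contrasts, added after the values had been seen, 1 of the 19 passed. Of all genes 16.8% passed for genotype and 21.1% for ventilation in these contrasts. It was Colec12, the gene of a lectin-type scavenger receptor, lower in Zmpste24-/- lungs by −0.39 ± 0.10 (limma, adjusted p = 0.0186, and below the threshold in 20 of 20 alternatives). With ventilation Colec12 fell by −0.34 ± 0.10 as the mean of both genotypes (adjusted p = 0.0323), a call lost without any of 8 of the 12 arrays (up to 0.0857).

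Cfb, the enzyme subunit of the alternative pathway convertase, was at 7.08, 7.12 and 7.14 in baseline wild type lungs and at 6.73, 7.07 and 7.11 after ventilation. Its Zmpste24-/- values were 7.18, 7.09 and 7.01 at baseline and at 7.19, 6.89 and 6.71 after ventilation. The groups overlapped in every comparison, and the spread was wider after ventilation (SD 0.21 and 0.25) than at baseline (SD 0.03 and 0.08), a difference of spread that was not tested. Its differences were −0.14 and −0.16 for ventilation and −0.02 and −0.04 for genotype, with adjusted p of 0.471 or more in each, and the sign of both genotype differences turned when array medians were subtracted or arrays were quantile normalized.

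The 3 C1q genes and Cfb varied together between mice of 1 group. In ventilated wild type lungs, array 1 was the lowest for C1qa, C1qb, C1qc and Cfb alike. In ventilated Zmpste24-/- lungs, array 1 was the highest for all 4 genes. The order was not particular to them: C3ar1 had it too, as did 9 of the 42 other complement genes measured (C2, C4b, Colec12, Hc, C6 and C7 among them) and 13.3% of all genes. After each group's mean was removed, Pearson's r over the 12 arrays was 0.87 for C1qb with Cfb, 0.78 for C1qb with C1qc and 0.77 for C1qc with Cfb. It was 0.69 for C1qa with Cfb and 0.53 for C1qa with C1qb and with C1qc. Pairs with other members reached sizes above that 0.53, with 0.63 for C1qb with Cd59a and −0.66 for C1qb with Cd55. These values describe 12 arrays of 1 hybridisation platform with the 4 group means taken out, and carry no test. C1qa, C1qb and C1qc are neighbours in the RefSeq gene order, with no other measured gene between them.

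C3ar1, the receptor of C3a, was at 6.22, 6.37 and 6.19 in baseline wild type lungs and at 6.23, 6.35 and 6.24 after ventilation. In Zmpste24-/- lungs it was at 6.12, 6.26 and 5.99 at baseline and at 6.08, 5.98 and 5.98 after ventilation. Every ventilated Zmpste24-/- array was below every ventilated wild type array, and the baseline groups overlapped. The difference under ventilation was −0.26 ± 0.09 (SE), with a 95% interval of −0.45 to −0.07, and did not pass (limma, adjusted p = 0.0792). At baseline the genotype difference was −0.13 ± 0.09 (adjusted p = 0.426). As the mean of both conditions, a contrast added after the values had been seen, C3ar1 was lower by −0.20 ± 0.06 and passed at an adjusted p of 0.045 in limma. That call was lost without any of 10 of the 12 arrays (adjusted p up to 0.114), with array medians subtracted (0.101), with quantile normalization (0.118) and with limma's trend option (0.0692).

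C5ar1, the receptor of C5a on neutrophils and macrophages, was at 5.35, 5.76 and 5.87 in baseline wild type lungs and at 6.13, 5.69 and 5.68 after ventilation. In Zmpste24-/- lungs it was at 5.61, 5.90 and 5.49 at baseline and at 6.24, 6.11 and 6.01 after ventilation. All 3 ventilated Zmpste24-/- arrays were above the 3 baseline ones, whereas the wild type groups overlapped. The difference with ventilation in Zmpste24-/- lungs was 0.45 ± 0.15 (SE), with a 95% interval of 0.12 to 0.79, and did not pass (limma, adjusted p = 0.0635). It passed with quantile normalization (adjusted p = 0.0313) and where those 6 arrays were fitted alone (0.0257), and it did not pass in 14 of 20 alternatives. In wild type lungs the difference was 0.17 ± 0.15 (adjusted p = 0.602). The difference between these ventilation effects was 0.28 and did not pass. With a mean of 5.82, C5ar1 lay close to the array medians, where a probe can understate a change.

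Both receptors are myeloid, and among the myeloid marker lists that of neutrophils moved most with the conditions. The mean of 15 neutrophil markers ran from 6.20 to 6.53 in wild type baseline lungs, from 6.30 to 6.87 in Zmpste24-/- baseline lungs, from 6.92 to 7.35 in ventilated wild type lungs and from 7.69 to 7.80 in ventilated Zmpste24-/- lungs. Of these markers 6 rose with ventilation in wild type and 10 in Zmpste24-/- lungs, against 3.67% and 8.89% of all genes, and none fell. Under ventilation 8 were higher and 1 lower in Zmpste24-/- lungs, against 4.72% and 6.08% of all genes. At baseline 1 was higher, against 2.2%. The mean of 11 interstitial macrophage and monocyte markers ran from 7.32 to 7.41 at baseline and from 7.11 to 7.28 after ventilation in wild type lungs, and from 7.07 to 7.24 and from 6.99 to 7.13 in Zmpste24-/- lungs. Among these 11, 1 fell with ventilation in wild type lungs, against 3.53% of all genes. In Zmpste24-/- lungs 2 were lower at baseline and 1 under ventilation, against 4.11% and 6.08%. Of 9 alveolar macrophage markers, Car4 alone fell with ventilation, by −0.50 in wild type and −0.47 in Zmpste24-/- lungs, against 3.53% and 7.52% of all genes. None passed for genotype at baseline, where the markers went both ways. There Fabp4 differed by 1.91 and Cidec by 0.94, while Marco differed by −0.23 and Siglecf by −0.17. Under ventilation 1 of the 9, Chil3, was higher in Zmpste24-/- lungs, and the 4 group means of this list ran from 7.57 to 7.91. In whole lung RNA, fewer cells of a type and less RNA per cell cannot be told apart, and the part of these cells in the receptor and C1q values was not tested.

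Cd55, which dismantles the C3-cleaving enzymes, was at 9.21, 8.98 and 8.98 in baseline wild type lungs and at 8.91, 8.90 and 8.39 after ventilation. Lungs of Zmpste24-/- mice gave 8.93, 8.99 and 9.10 at baseline and at 8.93, 8.84 and 8.98 after ventilation. The wild type groups did not overlap, with array 3 of the ventilated group far below the rest. The wild type ventilation difference was −0.32 ± 0.13 (SE), with a 95% interval of −0.60 to −0.05, and did not pass (limma, adjusted p = 0.157). Leaving out 1 array at a time gave −0.41 to −0.15, the smallest without that array 3. In Zmpste24-/- lungs the difference was −0.09.

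Cd59a was at 7.84, 9.15 and 8.70 in baseline wild type lungs and at 8.51, 8.93 and 9.17 after ventilation. In Zmpste24-/- lungs it was at 7.78, 7.98 and 7.51 at baseline and at 7.56, 7.86 and 7.71 after ventilation. The ventilated groups did not overlap. At baseline wild type array 1, at 7.84, lay within the Zmpste24-/- range, and the other wild type arrays lay above it. Under ventilation Cd59a averaged 7.71 ± 0.15 (SD, n = 3) in Zmpste24-/- lungs and 8.87 ± 0.33 (SD, n = 3) in wild type lungs. The difference was −1.16 ± 0.26 (SE), with a 95% interval of −1.71 to −0.61 and an adjusted p of 0.0112 in limma. It passed in 20 of 21 alternatives (adjusted p from 0.00157 to 0.0547) and was lost without array 3 of the ventilated wild type group, where it was −1.01. Several of these alternatives could not move the difference itself. A baseline array left out alters only the estimate of spread, and Cd59a had 1 probe. Leaving out 1 array at a time gave −1.34 to −1.01.

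At baseline the Cd59a difference was −0.81 ± 0.26 (SE), with a 95% interval of −1.36 to −0.26, and did not pass (limma, adjusted p = 0.0819). Without wild type baseline array 1 it was −1.17 and passed (adjusted p = 0.00691), and without array 2 of that group it was −0.52 (adjusted p = 0.262). Ventilation moved Cd59a by 0.30 ± 0.26 in wild type and by −0.05 ± 0.26 in Zmpste24-/- lungs, neither of which passed. The interaction was −0.35 ± 0.36 (adjusted p = 0.784), so the genotype difference was not shown to depend on ventilation. As the mean of both conditions, added after the values had been seen, Cd59a was 1.98-fold lower in Zmpste24-/- lungs (−0.98 ± 0.18, 95% interval −1.38 to −0.59). That contrast passed in limma (adjusted p = 0.00245) and in all 20 alternatives tried for it (0.000178 to 0.0084).

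Cd59b, a close copy that lies next to Cd59a in the gene order, was low throughout. Its arrays read 4.93, 4.95 and 5.38 in wild type baseline, 4.92, 4.67 and 5.03 in Zmpste24-/- baseline, 5.28, 4.93 and 5.11 in ventilated wild type and 5.21, 4.54 and 4.98 in ventilated Zmpste24-/- lungs. Its genotype differences were −0.21 at baseline and −0.20 under ventilation, and neither passed (limma, adjusted p = 0.531 under ventilation). How far the Cd59a and Cd59b probes read each other's transcript is stated in none of the sources used here, so the split between the copies is uncertain. Endothelium and fibroblasts are among the cells that carry CD59, and in both lists more markers were lower than higher in ventilated Zmpste24-/- lungs. The mean of 9 endothelial markers ran from 10.03 to 10.13 in ventilated wild type and from 9.77 to 9.92 in ventilated Zmpste24-/- lungs. Of the 9, 3 were lower and none higher, against 6.08% and 4.72% of all genes. The mean of 9 fibroblast and smooth muscle markers ran from 9.73 to 9.89 and from 8.99 to 9.02 in these groups, with 6 of 9 lower and 1 higher. Of 7 alveolar type 1 markers, 2 were higher and none lower in ventilated Zmpste24-/- lungs. With ventilation in wild type lungs 7 of the 9 endothelial markers fell, against 3.53% of all genes. Cd59a differed by 0.30 in that comparison and did not pass. The part of these cell types in the Cd59a value was not tested.

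**Figure D2:**
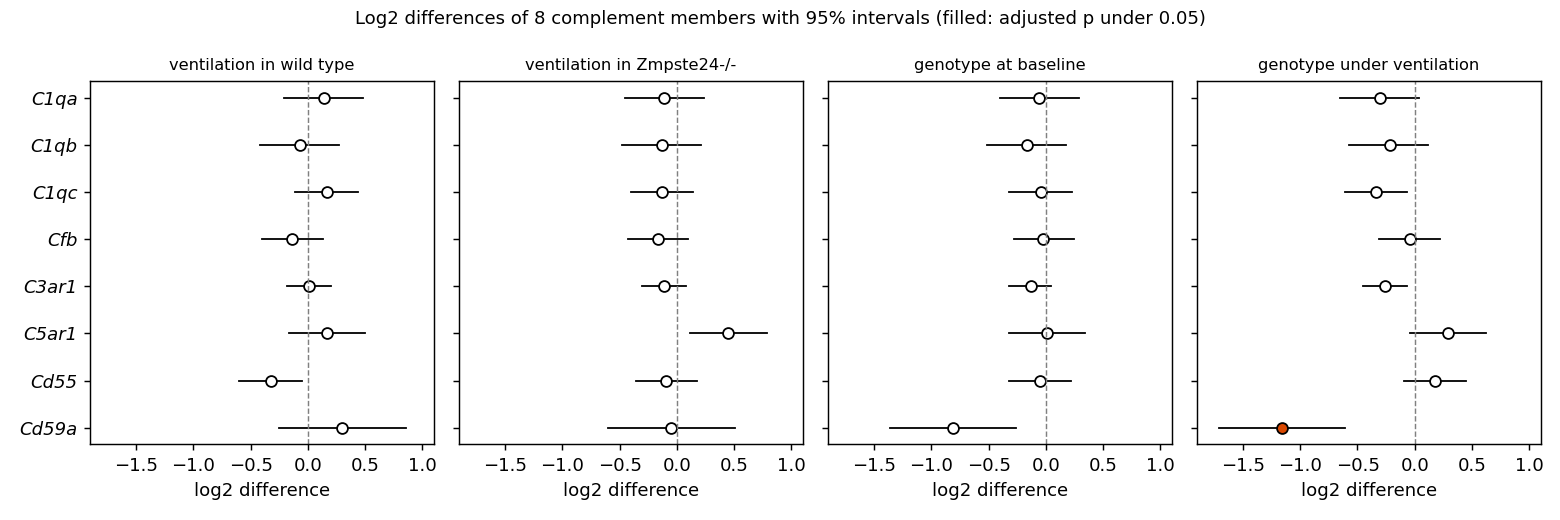
Log2 differences of the 8 measured complement genes in the 4 pairwise comparisons, with 95% confidence intervals from the limma fit; filled symbols have an adjusted p under 0.05. Only Cd59a under ventilation, at −1.16, is filled, and the 3 C1q genes and C3ar1 lie to the left of 0 in that panel.

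Counted together, 0 of 8 members changed with ventilation in wild type lungs, where 7.2% of all genes did, and 0 of 8 in Zmpste24-/- lungs, where 16.4% did. At baseline 0 of 8 differed between the genotypes, against 6.31% of all genes, and under ventilation 1 of 8 did, against 10.8%. For the interaction 0 of 8 passed, against 0.316%. At an unadjusted p under 0.05 in limma the counts were 1, 1, 1, 3 and 0 of 8, against 20.4%, 27.4%, 20.9%, 24.8% and 11.7% of all genes, and limma's trend option left the 4 counts of 0 at 0. Other alternatives moved a count from 0 to 1 member: C5ar1 passed for ventilation in Zmpste24-/- lungs with the 25th percentile filter, with quantile normalization and with the compared groups alone, and Cd59a passed at baseline with the replicate number as a block. As the mean of both genotypes 0 of 8 changed with ventilation, against 21.1% of all genes, and 2 of 8 had an unadjusted p under 0.05, against 31.2%. The arrays of 1 of 8 members (Cd55) did not overlap between ventilated and baseline wild type lungs, against 22.6% of all genes, and those of 1 of 8 (C5ar1) in Zmpste24-/- lungs, against 33.4%. Between the genotypes 0 of 8 were apart at baseline, against 23.9%, and 2 of 8 (C3ar1 and Cd59a) under ventilation, against 30.3%. The members' median difference under ventilation was −0.24, with 6 of 8 below 0, while the median of all genes was 0.005. As a mean of both conditions 2 of 8 members, C3ar1 and Cd59a, were lower in Zmpste24-/- lungs, against 10.2% of all genes lower and 16.8% called in either direction. With so few members, these shares were not tested against those of all genes.

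The rest of the complement system was followed in 42 other measured genes, grouped by role. At baseline 6 of 42 were lower and 0 higher, against 4.11% and 2.2% of all genes. Under ventilation 5 of 42 were lower and 0 higher, against 6.08% and 4.72%. As the mean of both conditions, added after the values had been seen, 10 were lower and 1 higher, against 10.2% and 6.64%. The 1 higher was Susd4, a membrane inhibitor, at 0.21 ± 0.07 (limma, adjusted p = 0.0471), which passed in 9 of 20 alternatives (up to 0.111). With ventilation 1 of 42 fell and 0 rose in wild type lungs, against 3.53% and 3.67% of all genes. In Zmpste24-/- lungs 3 rose and 3 fell, against 8.89% and 7.52%. No complement gene passed for the interaction (limma; 8 of the 42 at an unadjusted p under 0.05, against 11.7% of all genes).

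**Figure D3:**
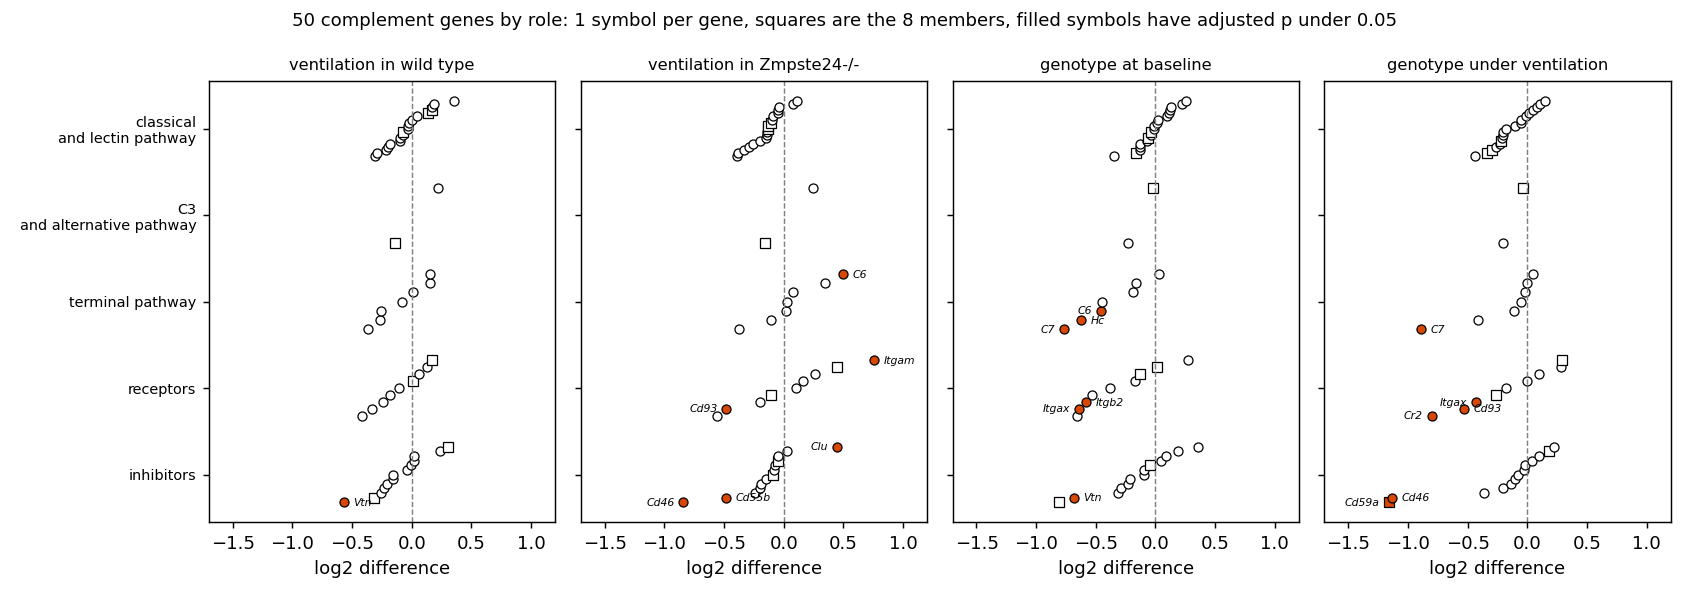
Log2 differences of 50 complement genes in the 4 pairwise comparisons, by role; 1 symbol is 1 gene, squares are the 8 genes of the main set, and filled, named symbols have an adjusted p under 0.05 in limma. No filled symbol appears among the 19 genes of the classical and lectin pathway, and in both genotype panels every filled symbol lies to the left of 0.

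Genes of the terminal pathway have products that build the membrane attack complex that CD59 blocks. At baseline 3 of 7 were lower in Zmpste24-/- lungs, more than in any other role list, against 4.11% of all genes. The calls of C7 and Hc were lost without single arrays, as given below, and the share was not tested. C6, which joins the complex after C5b, was at 7.81, 7.70 and 7.84 in wild type and at 7.36, 7.32 and 7.28 in Zmpste24-/- baseline lungs. Its baseline groups were well apart, by −0.46 ± 0.09 (limma, adjusted p = 0.00734). After ventilation C6 was at 7.94, 7.74 and 7.77 in Zmpste24-/- lungs, a rise of 0.50 ± 0.09 (limma, adjusted p = 0.00145). With 7.80, 8.04 and 7.96 in ventilated wild type lungs, the ventilated genotypes overlapped. Both C6 calls held in 21 of 21 alternatives.

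C7, which anchors the growing complex in the membrane, was at 11.36, 11.38 and 11.12 in wild type and at 10.56, 10.43 and 10.56 in Zmpste24-/- baseline lungs. After ventilation it was at 10.48, 11.42 and 11.20 in wild type and at 10.41, 10.19 and 9.83 in Zmpste24-/- lungs. No Zmpste24-/- array reached a wild type array of the same condition, although wild type ventilated array 1 came close. C7 was lower by −0.77 ± 0.20 at baseline (limma, adjusted p = 0.0346) and by −0.89 ± 0.20 under ventilation (adjusted p = 0.0116). The baseline call was lost without any of 5 of the 6 baseline arrays, and the ventilated call without wild type array 2 (0.0559), wild type array 3 (0.0532) or Zmpste24-/- array 3 (0.0579). Hc, the gene of C5, was at 11.19, 11.74 and 11.56 in wild type and at 11.00, 10.70 and 10.94 in Zmpste24-/- baseline lungs. It was lower by −0.62 ± 0.15 (limma, adjusted p = 0.0272), a call lost without wild type array 2 or 3 or Zmpste24-/- array 2 or 3 (0.0668 to 0.103). The liver is the main source of C5. Hc was highest in its group on wild type baseline array 2, which stood apart in liver transcripts. Without that array the difference was −0.50 (limma, adjusted p = 0.103). After ventilation Hc was at 11.39, 11.87 and 11.67 in wild type lungs, where Alb was at 9.18, 8.32 and 7.04. In ventilated Zmpste24-/- lungs Hc was at 11.40, 11.12 and 11.17, where Alb was at 6.40, 6.20 and 6.22. The Alb arrays of the genotypes were apart in both conditions, but under ventilation 0 of 13 liver markers passed for genotype. The part of liver transcripts in the Hc value was not tested.

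**Figure D4:**
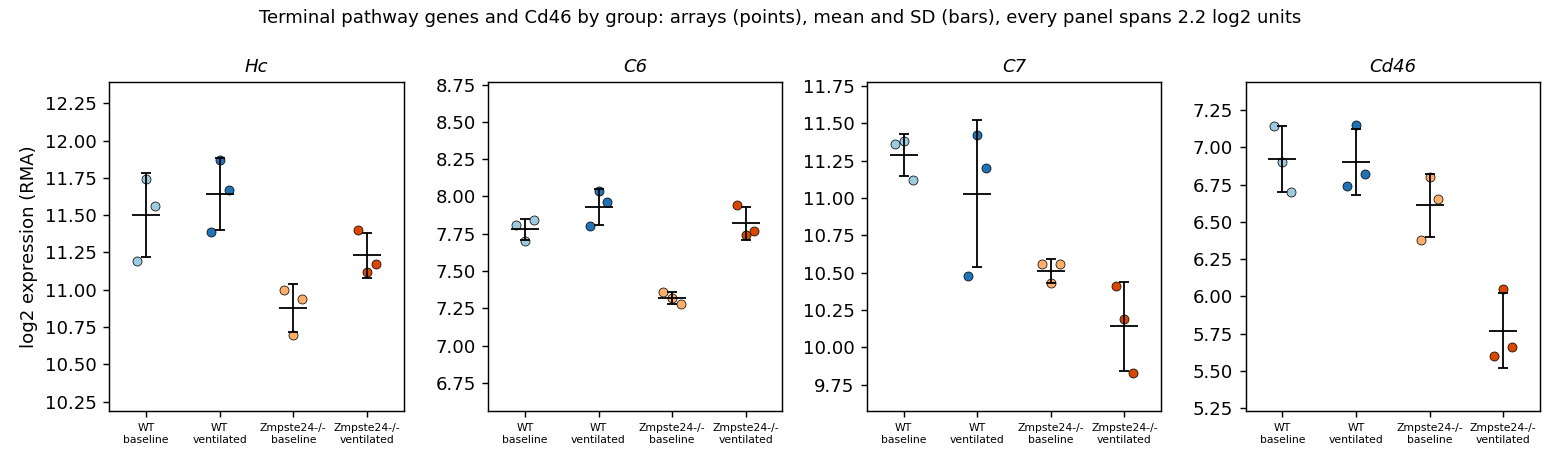
Log2 expression of the terminal pathway genes Hc, C6 and C7 and of the inhibitor Cd46 on each of the 12 arrays; points are single mice, and the bars give the mean and the SD of 3 mice. C6 separates the baseline genotypes alone, C7 lies lower in Zmpste24-/- lungs in both conditions, and Cd46 is lowest in ventilated Zmpste24-/- lungs, at 5.60 to 6.05.

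Among the genes listed here as inhibitors, Cd46 had a clear difference beside that of Cd59a. It was at 6.74, 7.15 and 6.82 in ventilated wild type and at 5.60, 6.05 and 5.66 in ventilated Zmpste24-/- lungs, a 2.19-fold difference (−1.13 ± 0.16, limma adjusted p = 0.000664). At baseline it was at 7.14, 6.90 and 6.70 in wild type and at 6.38, 6.80 and 6.65 in Zmpste24-/- lungs, and these groups overlapped. Ventilation lowered Cd46 in Zmpste24-/- lungs by −0.84 ± 0.16 (adjusted p = 0.00225), and in wild type lungs the difference was −0.01. Both calls held in 21 of 21 alternatives, while the interaction, −0.82 ± 0.22, did not pass (adjusted p = 0.137). So a different response of the genotypes was not shown for Cd46. Cr1l, another gene of the inhibitor list, differed by genotype by 0.09 ± 0.10 at baseline and by 0.10 ± 0.10 under ventilation. Neither passed (limma, adjusted p = 0.68 and 0.607).

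Cd55b, a close copy of Cd55, fell with ventilation in Zmpste24-/- lungs by −0.48 ± 0.10 (limma, adjusted p = 0.00605), at levels of 4.15 to 4.97 that lie below the array medians. Clu, the gene of the fluid-phase inhibitor clusterin, rose there by 0.45 ± 0.12 (adjusted p = 0.0171). The Clu call was lost with quantile normalization (0.0695) and without Zmpste24-/- baseline array 2 or 3 or ventilated array 2 (0.0514 to 0.0855). Vtn, the gene of vitronectin, was lower at baseline in Zmpste24-/- lungs by −0.68 ± 0.14 (limma, adjusted p = 0.0104). It also fell with ventilation in wild type lungs by −0.57 ± 0.14 (adjusted p = 0.0227), a call lost where those 6 arrays were fitted alone (0.0834) and without array 2 or 3 of either group (0.0575 to 0.0929). The liver makes vitronectin. At baseline 4 of 13 liver markers were lower in Zmpste24-/- than in wild type lungs, against 4.11% of all genes, and under ventilation 0 of 13. Among the wild type baseline arrays, array 2 was highest for Alb. Vtn was also highest on that array, at 8.09 against 7.57 and 7.83, and the liver transcripts' part in its value was not tested.

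Among the receptors, the integrin chains Itgax and Itgb2, which form complement receptor 4 on myeloid cells, were lower in Zmpste24-/- baseline lungs. Itgax was at 7.90, 8.02 and 8.18 in wild type and at 7.35, 7.51 and 7.31 in Zmpste24-/- lungs (−0.64 ± 0.12, limma adjusted p = 0.00686). Itgb2 was at 9.42, 9.59 and 9.32 and at 8.71, 9.18 and 8.71 (−0.58 ± 0.13, limma adjusted p = 0.0184). The groups of both genes were apart, but the Itgb2 call was lost where the 6 baseline arrays were fitted alone (0.0537) and without wild type array 2 or Zmpste24-/- array 1 or 3 (0.0716 to 0.0859). Under ventilation Itgax was lower by −0.43 ± 0.12 (adjusted p = 0.034), which was lost in 8 alternatives, with array medians subtracted (0.0634) and quantile normalization (0.0566) among them, and reached 0.143 without wild type ventilated array 3.

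Itgam, the alpha chain of complement receptor 3 and abundant on neutrophils, rose with ventilation in Zmpste24-/- lungs from 7.38, 7.64 and 7.12 to 7.88, 8.32 and 8.20. The rise was 0.76 ± 0.18 (limma, adjusted p = 0.0114) and was lost without baseline array 3 (0.0584) or ventilated array 2 (0.0551). Neutrophil markers rose beside it, as given above. Cd93, a surface protein of endothelium and myeloid cells first described as a C1q receptor, fell with ventilation in Zmpste24-/- lungs by −0.48 ± 0.13 (adjusted p = 0.0214) and was lower there than in ventilated wild type lungs by −0.53 ± 0.13 (adjusted p = 0.0192). In wild type lungs Cd93 differed by −0.33 ± 0.13 with ventilation, with no overlap, and did not pass (adjusted p = 0.155). Of the 9 endothelial markers, 7 fell with ventilation in each genotype, against 3.53% of all genes in wild type and 7.52% in Zmpste24-/- lungs. The list mean went from 10.55 to 10.09 in wild type and from 10.26 to 9.84 in Zmpste24-/- lungs. The part of endothelial cells in the Cd93 value was not tested. The ventilated genotypes overlapped by an equal Cd93 reading at 9.88. The first call was lost without Zmpste24-/- baseline array 2 or ventilated array 1 or 3 (0.0875 to 0.0975), and the second where the ventilated arrays were fitted alone (0.0502) and without 4 of those 6 arrays (0.0778 to 0.0836). Cr2, the B cell receptor for C3d, is named because it was the remaining call, after its values had been seen. Under ventilation it was lower in Zmpste24-/- lungs by −0.80 ± 0.21 (limma, adjusted p = 0.0254). This call was lost without wild type array 1 or 2 or Zmpste24-/- array 1 or 3 (0.0615 to 0.101). In the same comparison 7 of 9 lymphocyte markers were lower and none higher, against 6.08% and 4.72% of all genes.

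For each member the 3 named genes with the most similar profile were sought by Pearson's r over the 12 arrays, which share group means and carry no test. C1qa was most like Suclg1 (0.90), Pgap4 and Coq7, and C1qb most like Zdhhc3 (0.94), Tas2r140 and Lipt1. C1qc was most like Sema3b (0.92), Col28a1 and Cep55, and Cfb most like Fam53b (0.91), Bcam and Htr2c. None of the members had another member among its 3. C3ar1 was most like Fadd (0.94), Septin3 and Klk1, C5ar1 most like Fhl3 (0.93), Ppp1r37 and Ghrl, and Cd55 most like Gpr149 (0.91), Minar1 and Mtnr1a. Cd59a was most like Tmem141 (0.95), Lrrc8d (0.93) and Commd7 (0.90). Between members the highest values were 0.81 for C1qb with Cfb and 0.78 for C3ar1 with Cd59a.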

How the data were processed

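Whole lung RNA (Trizol, 100 ng, 1 Affymetrix array per mouse, per the labels' protocols) was measured in 12 mice. The authors deposited log2 values, with RMA and limma as the tools listed per the submitters' processing notes (no version is given there). The log2 scale was taken from the range of the values, which were not normalized again. No source used here gives array dates, so batches were not tested, and the number of arrays limits the precision.

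Of 41345 probes, 23521 carried 1 symbol, 1814 several and 16010 none in the platform annotation. Gene identifiers of 23328 matched the RefSeq table of GRCm38.p6, and the other 193 kept the annotation's symbol. The 1-symbol probe of highest mean over the 12 arrays stood for its gene (22180 genes, 1082 with more than 1 probe). No source used here names the build behind the probes.

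A model with 1 mean per group (8 residual degrees of freedom) was fitted with limma 3.58.1 (lmFit, eBayes; R 4.3.3), with 5 contrasts, and the Benjamini-Hochberg adjustment ran over all genes of a contrast. An exact permutation test of 3 against 3 cannot go below 0.1. P-values measure the spread between mice of these groups. The fit was tested on simulated data. Alternatives were filters at the 25th percentile and at the median of mean level, array medians subtracted, quantile normalization, limma's trend option, the compared groups alone, the replicate number as a block, every probe, the mean of a gene's probes, and each array left out. Filters, the trend option, the compared groups alone and the block changed spread or adjustment, not the difference itself. The same holds for an array left out of a group not compared, and for the probe settings where a gene had 1 probe. Counts of alternatives passed therefore include settings that could not move a difference. The contrasts averaged over genotype or condition were added after the values were seen. Motifs were searched in Python 3.11.15 and figures drawn with matplotlib 3.10.9.

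The members, the 54 complement genes by role (50 measured) and the 13 cell type lists were chosen with earlier results of these data known. All measured members were named, and of each other complement list at most 4 genes that passed in at least 1 of the 5 contrasts, smallest adjusted p first. Cr2, Colec12, Susd4, C4a, C4b and Cr1l, and the genes listed for a shared array order, were named after their values were seen. Marker lists not given above, or given in part, had these higher and lower calls under ventilation in Zmpste24-/- against wild type (limma, Benjamini-Hochberg). Of all genes 4.72% were higher and 6.08% lower. Alveolar macrophages had 1 and 0 of 9, alveolar type 2 cells 0 and 2 of 9 and alveolar type 1 cells 2 and 0 of 7. Airway epithelium had 0 and 0 of 6, mesothelium 0 and 0 of 5, adipocytes 0 and 0 of 6 and platelets 0 and 1 of 4. Liver markers had 0 and 0 of 13. Same-numbered arrays of different groups did not deviate together (18 pairs, r from −0.15 to 0.15), so the numbers were not taken as pairs.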

Additional observations from a re-analysis of the deposited data

How the results depend on the processing

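Counts of genes called moved by more than 1.5 times in these cases. With the compared groups fitted alone, ventilation in wild type called 923 genes in place of 1597 and 0 complement genes in place of 1. Ventilation in Zmpste24-/- called 1 member, C5ar1, in place of 0 with the 25th percentile filter, with quantile normalization and with the groups alone. The interaction called 152 genes with the median filter, 26 with quantile normalization and 43 with the replicate block, against 70. With the replicate block, genotype at baseline called 1 member, Cd59a (adjusted p = 0.0368), in place of 0; the numbers do not pair the mice, and the only other call of a gene named here that the block changed was that of Itgax under ventilation (0.0511). With array medians subtracted, the calls for genotype under ventilation were 1528 higher and 973 lower in place of 1046 and 1349, and with quantile normalization those at baseline were 657 and 776 in place of 488 and 911.

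Leaving out 1 array at a time gave 799 to 1598 genes, 0 to 0 members and 0 to 1 complement genes for ventilation in wild type, 2432 to 3774, 0 to 1 and 4 to 8 for ventilation in Zmpste24-/-, 646 to 1483, 0 to 1 and 3 to 7 for genotype at baseline, 1369 to 2510, 0 to 2 and 2 to 8 for genotype under ventilation, and 8 to 118, 0 to 0 and 0 to 0 for the interaction.

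Signs turned in 35 of 1322 alternative values of single genes, none of them past the threshold under either setting; 14 passed only under the alternative and 80 no longer passed. With array medians subtracted, C3ar1 turned to −0.011 for ventilation in wild type, and Cfb to 0.004 at baseline, 0.015 under ventilation and 0.011 for the interaction. With quantile normalization Cfb turned to 0.031 at baseline and 0.029 under ventilation, and C5ar1 to −0.006 at baseline. With 1 array left out, ranges that crossed 0 were, for ventilation in wild type, C1qb −0.19 to 0.097, C3ar1 −0.026 to 0.066 and Cd59a −0.057 to 0.6, and for ventilation in Zmpste24-/-, C1qa −0.25 to 0.075, C1qb −0.25 to 0.005 and Cd59a −0.17 to 0.066. At baseline they were C1qa −0.24 to 0.086, C1qc −0.12 to 0.012, Cfb −0.06 to 0.021, C5ar1 −0.15 to 0.11 and Cd55 −0.1 to 0.024, under ventilation Cfb −0.17 to 0.072, and for the interaction C1qb −0.23 to 0.078, Cfb −0.15 to 0.09 and Cd59a −0.64 to 0.011. The cause was not tested. C5ar1, at 5.82, was not tested under the median filter.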

Other observations

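Genes next to Cd59a were read beside it. Of its 10 nearest measured neighbours in RefSeq gene order, Fbxo3 alone was called for genotype under ventilation, where 10.8% of all genes were. It was lower by −0.38 ± 0.10 in Zmpste24-/- lungs (limma, adjusted p = 0.0288). Lmo2, a further neighbour, was at −0.23 ± 0.08 (adjusted p = 0.0736). Others lay above 0, with Cstf3 at 0.26 ± 0.12 (adjusted p = 0.178) and D430041D05Rik at 0.19 ± 0.08 (0.168), so the neighbours did not share a direction. Of the 3 genes with the profile most like that of Cd59a, Tmem141 and Commd7 lie on chromosome 2 as Cd59a does, and Lrrc8d on chromosome 5. These neighbours were looked up after the Cd59a values had been seen, and no test of position was run.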
